A study of Mus musculus with 46 samples.

Results

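The aminoacyl tRNA synthetases are the enzymes that join each amino acid to its transfer RNA. Their genes were found by row name, as the letter of an amino acid followed by ars with an optional 1 or 2, plus Eprs, Ears2, Farsa and Farsb. The rule found 36 genes among the 55774 rows of 3 tables and the 56775 rows of the fourth, with the same 36 in each. Of these, 20 make the enzymes of the cytosol and 16 make the enzymes of the mitochondrion, whose names carry the suffix 2. Gars and Kars, for glycine and lysine, serve both compartments and were counted as cytosolic. RNA sequencing of 46 mouse libraries in 13 groups addressed the functions of the long noncoding RNA Falcor (9030622O22Rik). In the inducible experiment, lines of AML12, a mouse hepatocyte line, carried a hairpin titled shLinc, whose characteristics name Falcor as the target, or a control hairpin titled shCtrl, and each line was sampled without doxycycline, with doxycycline, and in the state labelled restored, whose titles read DoxMinus (3 libraries in each of 6 groups). In the conventional experiment, AML12 cells carried a Falcor, a ZC3H11A or a control hairpin (3 libraries each). Livers came from Falcor knockout and control mice, 4 and 4 on the diet labelled NCD and 6 and 5 on the diet labelled HFD. The labels give no strain, age, sex, allele design or number of clones, and they do not say whether replicates were separate cultures or animals, so p-values cover the spread among libraries, which may be technical.

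Each synthetase recognises its amino acid and the matching transfer RNAs, spends ATP to activate the amino acid, and attaches it to the transfer RNA for use at the ribosome. Mammalian cells keep separate nuclear genes for most of the mitochondrial enzymes, which charge the transfer RNAs encoded by mitochondrial DNA. In the cytosol, 8 of the enzymes measured here (Eprs, Iars, Lars, Qars, Mars1, Kars, Rars and Dars) sit with the scaffold proteins AIMP1, AIMP2 and EEF1E1 in the multi-tRNA synthetase complex. Uncharged transfer RNA activates the kinase GCN2, whose signal raises the transcription factor ATF4, and ATF4 is known to drive many cytosolic synthetase genes through the amino acid response element, also called the C/EBP-ATF site. The liver makes large amounts of secreted protein, and AML12 cells were derived from hepatocytes.

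A single exact form of the C/EBP-ATF site, TGATGCAA or TTGCATCA on the strand read, was looked for. Other forms of the site were not searched, so a gene without these letters may still carry one. Windows ran from 250 bases before to 50 bases after each gene's start (RefSeq, GRCm38.p6). Windows were found for 27 of the 36 genes. The letters were present in 4 of 13 cytosolic genes with a window (30.8%) and in 0 of 14 mitochondrial genes, against 279 of all 27025 genes with a window (1.03%). The 4 windows are shown because their genes are followed through the results, with the 8 letters in capitals, read 5′ to 3′ on the strand of the gene. The motif was chosen with earlier results of these data known, and a match describes the letters only.
Aars, chr8:111033592-111033891, plus strand: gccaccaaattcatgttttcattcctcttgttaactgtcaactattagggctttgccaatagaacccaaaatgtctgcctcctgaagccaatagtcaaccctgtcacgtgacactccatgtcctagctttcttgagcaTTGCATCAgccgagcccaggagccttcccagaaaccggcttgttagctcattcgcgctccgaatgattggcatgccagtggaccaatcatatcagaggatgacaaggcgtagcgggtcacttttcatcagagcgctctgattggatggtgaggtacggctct
Iars, chr13:49681880-49682179, plus strand: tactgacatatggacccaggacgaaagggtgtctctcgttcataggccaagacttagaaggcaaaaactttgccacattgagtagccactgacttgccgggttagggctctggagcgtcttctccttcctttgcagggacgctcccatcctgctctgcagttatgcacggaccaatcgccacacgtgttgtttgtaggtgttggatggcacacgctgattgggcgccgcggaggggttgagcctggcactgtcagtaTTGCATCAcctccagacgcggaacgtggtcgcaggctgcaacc
Tars, chr15:11399609-11399908, minus strand: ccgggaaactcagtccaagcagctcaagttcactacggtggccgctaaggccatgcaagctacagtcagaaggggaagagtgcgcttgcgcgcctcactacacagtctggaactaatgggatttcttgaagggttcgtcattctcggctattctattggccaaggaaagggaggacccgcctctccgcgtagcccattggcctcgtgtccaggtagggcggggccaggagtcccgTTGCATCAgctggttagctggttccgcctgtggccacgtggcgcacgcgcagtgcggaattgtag
Yars, chr4:129189653-129189952, plus strand: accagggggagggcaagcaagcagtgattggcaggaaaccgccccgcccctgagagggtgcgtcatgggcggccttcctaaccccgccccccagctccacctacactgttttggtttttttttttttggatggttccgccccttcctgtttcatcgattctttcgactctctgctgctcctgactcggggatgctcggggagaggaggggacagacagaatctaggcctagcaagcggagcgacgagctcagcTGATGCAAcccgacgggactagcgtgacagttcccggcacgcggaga
In the mm10 annotation (GENCODE M21), Ears2 spans chr7:122037213-122067263, Cars chr7:143557230-143600090, Nars2 chr7:96951505-97064758 and Dars chr1:128363707-128417368. Counted from the start, the first letter of the match lay at −112 in Aars, 8 in Iars, −15 in Tars and 4 in Yars.

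The conventional table holds counts, with totals of 4474760 to 8837581 per library. The 3 other tables hold rounded whole numbers that look like a length-scaled unit such as TPM, with totals of 833910 to 975752, so their depth is unknown, and they are called values below. Levels of different genes are compared only in these 3 tables, where a length-scaled unit makes that possible. Falcor itself was listed at 12, 9 and 10 in the Falcor hairpin line without doxycycline, against 4, 6 and 5 in the control hairpin line. With doxycycline the values were 2, 2 and 3, against 5, 4 and 5. In the restored state they were 11, 9 and 11, against 5, 4 and 5. The knockdown therefore stood below the control only under doxycycline, and the Falcor hairpin line stood above it in the other 2 states. In the conventional experiment Falcor had 7, 4 and 5 counts with its own hairpin, 4, 3 and 6 with the ZC3H11A hairpin, and 38, 11 and 24 in control cells. Falcor was 0 in all 10 knockout livers, against 70 to 135 in NCD and 17 to 27 in HFD control livers. All 8 hepatocyte markers were detected in the AML12 tables. One library stood apart in the inducible table, control hairpin without doxycycline replicate 1, and another in HFD, knockout replicate 6, whose scale factor was 0.438.

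The cytosolic enzymes were the more abundant in every inducible group. For 16 pairs that charge the same amino acid, the cytosolic gene was higher than the mitochondrial gene in all 3 libraries of each group, 16 of 16 pairs in 6 of 6 groups. Gars and Nars, for glycine and asparagine, were among the 3 highest in each group, and Mars2, for mitochondrial methionine, was listed at 1 or 2 in all 18 libraries. The median ratio of a cytosolic to its mitochondrial gene was 6.79 in the Falcor hairpin line and 9.09 in the control hairpin line without doxycycline. It was 10.1 and 9.70 with doxycycline, and 8.69 and 10.2 in the restored state. The narrowest pair was Iars and Iars2 in the uninduced Falcor hairpin line, with mean scaled values of 36.9 and 22.7. Mars1 and Mars2 formed the widest pair there, at 58.6 and 0.907.

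In liver the order was less uniform. The cytosolic gene was higher without overlap in 13 of 16 pairs in both NCD groups, with median ratios of 2.49 in knockout and 3.24 in control livers. On HFD it was higher in 12 pairs in knockout and 10 in control livers, with median ratios of 2.99 and 2.46, where Mars1 over Mars2 ranks highest because Mars2 was listed at 0. The mitochondrial leucine enzyme Lars2 exceeded the cytosolic Lars in NCD livers, with mean scaled values of 12.6 and 7.02 in knockout livers and 18.3 and 7.48 in control livers, and those groups of libraries did not overlap between the genes. Iars2 had a mean of 19.0 against 14.7 for Iars in NCD knockout livers, and Fars2 overlapped Farsa there. Aars was the most abundant synthetase gene in all 4 liver groups. Its NCD mean was 42.7 ± 5.1 in knockout livers and 44.8 ± 2.3 in control livers (SD, n = 4 each). Qars was listed at 0 in all 8 NCD livers and at 0 to 2 in HFD livers, although it reached 27 to 48 in the inducible lines. Whether the liver values of Qars reflect its expression or how reads were assigned was not tested. The tables were scaled separately, so levels were not compared between them by a test.

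**Figure D1:**
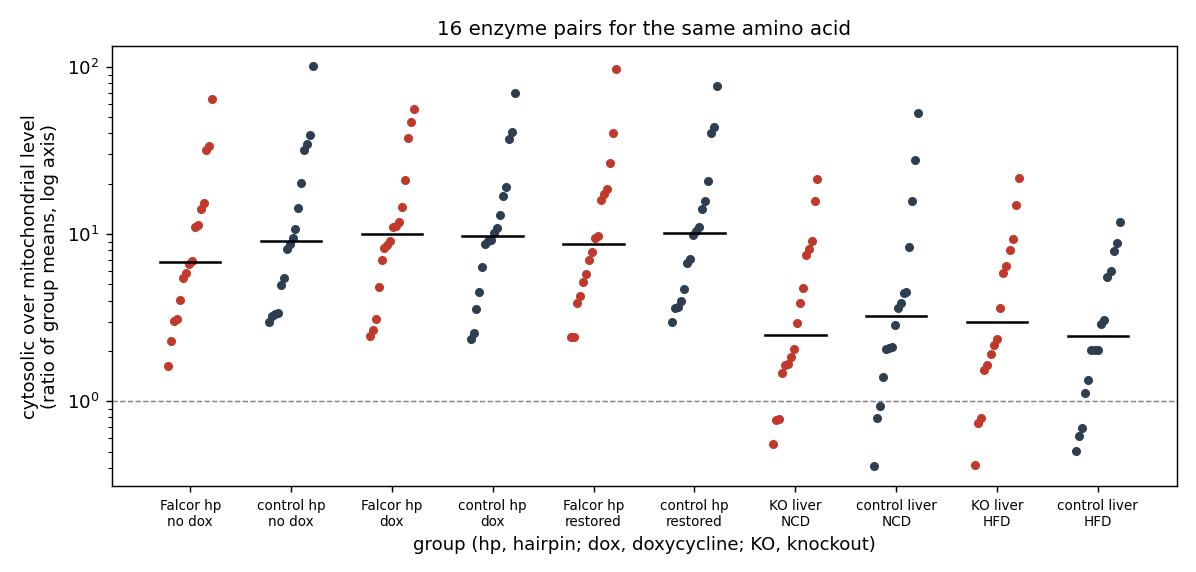
Ratio of the cytosolic to the mitochondrial group mean for 16 enzyme pairs, by group (log axis; points are pairs, lines are medians over all 16, and Mars1 over Mars2 has no point on HFD because Mars2 was listed at 0). The medians lie between 6.79 and 10.2 in the inducible lines and between 2.46 and 3.24 in livers.

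Before any doxycycline, most cytosolic synthetase genes were already lower in the line with the Falcor hairpin than in the line with the control hairpin. Of 34 genes tested, 25 were lower and 1 was higher, where 35.2% and 30.1% of all 9840 genes tested were called in those directions (65.3% in either direction). All 12 tested cytosolic genes outside the multi-tRNA synthetase complex were lower, with a median log2 fold change of −0.65. Within the complex 6 of 8 were lower, with a median of −0.35. Of 14 mitochondrial genes 7 were lower and 1 was higher, with a median of −0.21, and the median of all genes was −0.02. Hepatocyte marker sums were 1800 to 1853 in the Falcor hairpin line and 1259 to 1284 in the control hairpin line, and cholangiocyte marker sums, with Epcam at 0, were 1158 to 1177 and 1154 to 1282. Their part in these differences was not tested.

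The mean log2 level over the 20 cytosolic genes, taken per library, was 6.16 to 6.18 in the Falcor hairpin line without doxycycline, against 6.68 to 6.78 in the control hairpin line. Over the 16 mitochondrial genes it was 3.27 to 3.29 against 3.47 to 3.52. Under doxycycline the cytosolic means were 6.85 to 6.86 against 6.81 to 6.84, and the mitochondrial means were 3.60 to 3.62 against 3.53 to 3.67. In the restored state they were 6.43 to 6.47 against 6.88 to 6.90, and 3.34 to 3.36 against 3.62 to 3.68. The lines overlapped only in the mitochondrial mean under doxycycline.

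**Figure D2:**
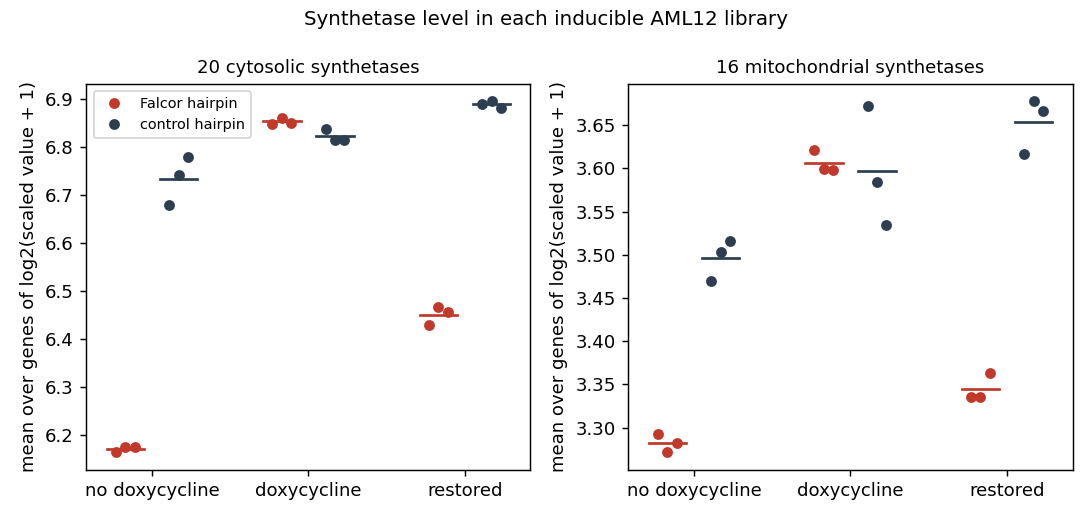
Mean over genes of log2(scaled value + 1) in each inducible library, for cytosolic and mitochondrial synthetases (points are libraries, lines are means of 3). The Falcor hairpin line sits at 6.16 to 6.18 for the cytosolic genes without doxycycline, against 6.68 to 6.78 in the control hairpin line, and the 2 lines sit close together under doxycycline.

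Cars, the cysteine enzyme, had values of 83, 83 and 84 in the uninduced Falcor hairpin line, against 134, 151 and 149 in the control hairpin line. Its log2 fold change was −0.97 ± 0.03 (SE, adjusted p = 1.03e-13). Aars, the alanine enzyme, had 99, 99 and 100 against 148, 173 and 176 (−0.92 ± 0.03, adjusted p = 3.3e-13). In both genes every Falcor hairpin library was below every control library. Yars, the tyrosine enzyme, had 29, 31 and 31 against 45, 50 and 52 (−0.86 ± 0.04, adjusted p = 1.15e-11). Iars, the isoleucine enzyme, had 40, 41 and 41 against 51, 71 and 75 (−0.84 ± 0.07, adjusted p = 3.11e-08). Mars1, the methionine enzyme, had 62, 65 and 67 against 92, 105 and 108 (−0.83 ± 0.03, adjusted p = 2.15e-12). The lowest control value of Iars came from the library that stood apart. Mars1 overlaps Ddit3 on the opposite strand, and the authors' counting is not stated to use strand, so reads of the pair may be shared. The same holds for Ears2 with Ubfd1, Cars2 with Naxd, Wars with Wdr25, Yars with C77080 and Nars2 with C230038L03Rik. Opposite-strand overlaps also join Iars2 to Rab3gap2, Fars2 to Lyrm4 and Nrn1, and Farsb to Sgpp2. All overlaps given here were taken from whole gene spans, introns included. Whether exons overlap, as sharing of transcript reads would need, was not checked. Aars overlaps Exosc6 on the same strand, so reads of that pair may be shared even where strand is used.

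The largest fall was that of a mitochondrial gene. Ears2, the mitochondrial glutamate enzyme, was 6 in each uninduced Falcor hairpin library, against 13, 14 and 15 in the control hairpin line (−1.26 ± 0.09, adjusted p = 1.84e-09). Tars2, for mitochondrial threonine, had 15, 16 and 15 against 21, 22 and 21 (−0.63 ± 0.07, adjusted p = 6.68e-07). Yars2 and Cars2 also fell, by 0.68 and 0.62 on the log2 scale. Rars2, the mitochondrial arginine enzyme, was the only gene called higher, with 12 in each library against 9, 9 and 8 (0.25 ± 0.09, adjusted p = 0.023). That call was lost without control replicate 3 (0.19, adjusted p = 0.108) and without Falcor hairpin replicate 1 (0.24, adjusted p = 0.0623). Mars2 was too low to be tested. The 4 genes with the C/EBP-ATF letters were all lower, with a median of −0.85, where 35.2% of all genes were called lower. All tested cytosolic genes outside the complex were lower as well, so this was not particular to genes with the letters.

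Some genes of the complex stayed close together in the 2 lines. Dars, the aspartate enzyme, had 61, 63 and 66 against 57, 62 and 55 (−0.06 ± 0.05, adjusted p = 0.266), and these ranges overlapped. Qars, the glutamine enzyme, had 36, 48 and 42 against 30, 27 and 41 (0.18 ± 0.16, adjusted p = 0.346). Eprs, which charges both glutamate and proline, had 67, 68 and 69 against 56, 76 and 77, and was called lower (−0.21 ± 0.06, adjusted p = 0.00585) although its groups overlapped. Without the control library that stood apart its fold change was −0.32. The uninduced libraries of the Falcor hairpin line had larger scale factors, 1.08 to 1.12 against 0.913 to 0.998. Without that rescaling the median of all genes moved up by 0.18 and the counts were 4 higher and 20 lower, with the calls of Aars2, Eprs, Lars, Nars2 and Sars2 lost.

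Under doxycycline the synthetase genes of the Falcor hairpin line were close to those of the control hairpin line, with small changes in both directions. Of 34 genes tested 10 were higher and 7 lower, where 25.4% and 27.0% of all genes were called (52.5% in either direction). Cytosolic genes were higher in 7 and lower in 5 of 20, with a median log2 fold change of 0.07, and mitochondrial genes were higher in 3 and lower in 2 of 14, with a median of 0.00. The range was −0.45 to 0.40. Hepatocyte marker sums were 830 to 843 against 1144 to 1165 and cholangiocyte marker sums 920 to 940 against 1132 to 1148, and their part was not tested.

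Farsa, the catalytic subunit of the cytosolic phenylalanine enzyme, had 91, 92 and 91 in the Falcor hairpin line under doxycycline, against 71, 71 and 69 in the control hairpin line (0.38 ± 0.04, adjusted p = 3e-07). Kars had 227, 221 and 223 against 180, 178 and 179 (0.32 ± 0.03, adjusted p = 5.3e-08). Tars2 had 21, 22 and 21 against 16, 17 and 15 (0.40 ± 0.07, adjusted p = 0.000153). These 3 genes did not overlap between the lines. On the other side, Nars, the cytosolic asparagine enzyme, had 253, 248 and 255 against 313, 307 and 302 (−0.28 ± 0.03, adjusted p = 1.68e-06). Eprs had 89, 88 and 88 against 110, 115 and 115 (−0.35 ± 0.06, adjusted p = 0.000114). Dars had 77, 74 and 75 against 91, 92 and 95 (−0.29 ± 0.05, adjusted p = 7.32e-05). Each of these was lower in every Falcor hairpin library.

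Several calls under doxycycline, the largest fold change among them, were lost when 1 library was left out. Lars2 had 26, 25 and 23 against 41, 31 and 31 (−0.45 ± 0.15, adjusted p = 0.0237), and the call was lost without control replicate 1 (−0.31, adjusted p = 0.115) or Falcor hairpin replicate 3 (−0.40, adjusted p = 0.0794). Nars2, the mitochondrial asparagine enzyme, had 7, 6 and 7 against 8, 8 and 9 (−0.28 ± 0.09, adjusted p = 0.0116), and the call was lost without control replicate 3 (−0.23, adjusted p = 0.0584) or Falcor hairpin replicate 2 (−0.22, adjusted p = 0.0648). Vars2, for mitochondrial valine, had 11, 11 and 10 against 9, 9 and 7 (0.33 ± 0.09, adjusted p = 0.00717), and was 0.22 without control replicate 3 (adjusted p = 0.0513). Calls of Sars, Sars2 and Yars were also lost when a library was left out.

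In the restored state the Falcor hairpin line again had lower synthetase values. Of 34 genes tested 26 were lower and 0 were higher, where 32.3% and 25.7% of all genes were called in those directions (57.9% in either direction). By compartment, 18 of 20 cytosolic genes were lower with a median of −0.49, and 8 of 14 mitochondrial genes were lower with a median of −0.42. All 12 cytosolic genes outside the complex were lower, and 6 of 8 within it. Wars, the tryptophan enzyme, had 88, 88 and 91 in the Falcor hairpin line, against 147, 140 and 148 in the control hairpin line (−0.86 ± 0.04, adjusted p = 5.23e-12). Ears2 had 9, 8 and 8 against 16, 15 and 13 (−0.89 ± 0.09, adjusted p = 1.73e-07). Cars had 109, 111 and 114 against 165, 162 and 159 (−0.70 ± 0.03, adjusted p = 6.56e-12). None of these ranges overlapped. Vars2, not called without doxycycline, had 10, 10 and 9 against 14, 13 and 15 (−0.64 ± 0.09, adjusted p = 2.11e-05). Dars and Qars were not called, with adjusted p = 0.155 and 0.724. Hepatocyte marker sums were 2248 to 2320 against 1403 to 1437 and cholangiocyte marker sums 936 to 951 against 1339 to 1344, and their part was not tested. Without rescaling the median of all genes moved up by 0.15, and the counts were 2 higher and 24 lower.

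**Figure D3:**
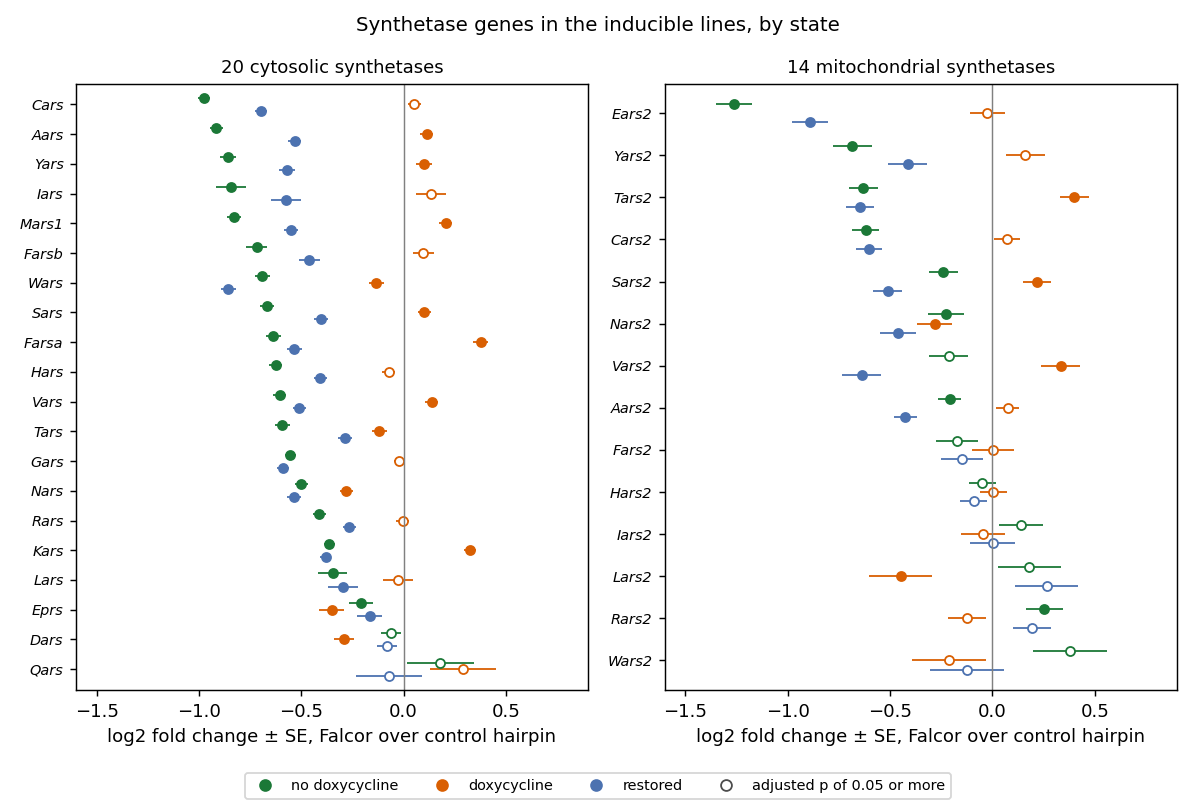
Log2 fold change ± SE of the Falcor over the control hairpin line for each tested synthetase gene, in 3 states (filled points had an adjusted p below 0.05). Cytosolic points without doxycycline and in the restored state lie mostly left of 0, with medians of −0.61 and −0.49, and under doxycycline they lie around 0, with a median of 0.07.

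The size of the difference between the lines was set against the state in the same fit. From no doxycycline to doxycycline, the log2 fold change between lines rose for 24 synthetase genes and fell for 3 of 34, where 34.1% and 30.9% of all genes were called (65.0% in either direction). Cytosolic genes rose in 17 and fell in 1 of 20, with a median of 0.62, and mitochondrial genes rose in 7 and fell in 2 of 14, with a median of 0.23. All 12 cytosolic genes outside the complex rose, with a median of 0.76, and 5 of 8 within it, with a median of 0.36. Among the largest differences were those of Ears2 (1.24 ± 0.12, adjusted p = 1.78e-07), Mars1 (1.03 ± 0.05, adjusted p = 1.4e-11) and Cars (1.03 ± 0.04, adjusted p = 5.46e-12). Dars fell (−0.23 ± 0.07, adjusted p = 0.00641). Lars2 (−0.63) and Rars2 (−0.38) fell as well, and both calls were lost when a library was left out. Between the restored state and doxycycline the counts were also 24 and 3, where 31.8% and 28.7% of all genes were called (60.5% in either direction). Between the restored state and no doxycycline 10 genes rose and 2 fell, where 11.1% and 8.79% were called (19.9% in either direction). These differences share libraries with each other and with the comparisons above.

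Within the Falcor hairpin line, doxycycline was accompanied by higher values of 27 synthetase genes and lower values of 0, where 38.8% and 35.5% of all genes were called (74.2% in either direction). The median log2 fold change was 0.73 for 20 cytosolic and 0.30 for 14 mitochondrial genes, against 0.03 for all genes. Rars, the arginine enzyme, had 116, 117 and 121 with doxycycline and 68, 73 and 71 without it (0.94 ± 0.03, adjusted p = 3.32e-14). Iars had 78, 77 and 76 with doxycycline and 40, 41 and 41 without (1.11 ± 0.07, adjusted p = 2.99e-10). Neither gene overlapped between states. Without rescaling the median of all genes moved down by 0.20 and the counts were 23 higher and 4 lower.

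In the control hairpin line the same drug went with 14 higher and 12 lower genes, where 34.0% and 32.5% of all genes were called (66.5% in either direction). Dars (0.69 ± 0.05, adjusted p = 1.4e-09) and Eprs (0.73 ± 0.06, adjusted p = 1.31e-08) were higher in both lines. Sars, the serine enzyme, was lower in the control line, with 207, 197 and 191 under doxycycline and 256, 269 and 266 without it (−0.39 ± 0.03, adjusted p = 1.61e-08), and higher in the Falcor hairpin line (0.38 ± 0.03, adjusted p = 1.08e-08). Aars likewise was lower in the control line (−0.32 ± 0.03, adjusted p = 1.73e-07) and higher in the Falcor hairpin line (0.71 ± 0.03, adjusted p = 1.65e-12). The difference between lines, as tested above, was 0.77 ± 0.05 for Sars (adjusted p = 3.24e-10) and 1.03 ± 0.05 for Aars (adjusted p = 8.09e-12).

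After the restored state was reached, 27 genes of the Falcor hairpin line were lower than under doxycycline and 3 were higher, where 38.1% and 34.1% of all genes were called (72.2% in either direction). Dars had 46, 41 and 44 in the restored state and 77, 74 and 75 under doxycycline (−0.95 ± 0.05, adjusted p = 9.78e-12). In the control hairpin line 17 genes were higher and 11 lower, where 39.6% and 34.2% were called (73.8% in either direction), and Dars was lower there too (−1.16 ± 0.05, adjusted p = 1.28e-12). Sars had 341, 344 and 345 in the restored control line, above its 207, 197 and 191 under doxycycline (0.78 ± 0.03, adjusted p = 1.75e-12). Without rescaling, the median of all genes in the Falcor hairpin line moved up by 0.17 and its counts were 6 higher and 18 lower. Against no doxycycline, the restored state had 17 higher and 3 lower genes in the Falcor hairpin line, where 28.6% and 23.8% were called (52.4% in either direction), and 15 higher and 6 lower in the control line, where 27.2% and 22.8% were called (49.9% in either direction).

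The conventional hairpins gave a different pattern, in which a few genes moved strongly and the family did not move together. With the Falcor hairpin 13 of 36 genes were higher than in control cells and 6 lower, where 25.5% and 26.0% of all 11871 genes tested were called (51.5% in either direction). Cytosolic genes were higher in 9 and lower in 4 of 20, with a median log2 fold change of 0.27, and mitochondrial genes were higher in 4 and lower in 2 of 16, with a median of 0.21. Hepatocyte marker sums were 406 to 482 CPM with the Falcor hairpin and 1166 to 1309 CPM in control cells. Of 5 macrophage markers, Cd68 alone was present with the Falcor hairpin, at 48.0 to 51.2 CPM against a sum of 2.95 to 4.74 CPM in control cells, and Adgre1, Clec4f, Cd5l and Ptprc were at 0. Sums of 5 stellate and fibroblast markers were 23.4 to 27.4 CPM with the Falcor hairpin and 11.9 to 19.8 CPM in control cells. The part of these markers in the synthetase results was not tested.

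Both asparagine enzymes were low in these cells. Nars had 411, 174 and 361 counts with the Falcor hairpin (68.1, 36.1 and 40.3 CPM), against 1760, 1151 and 1234 in control cells (204, 205 and 202 CPM). Its log2 fold change was −2.10 ± 0.19 (adjusted p = 2.43e-05, edgeR). Nars2 had 14.9, 10.2 and 15.6 CPM against 47.7, 41.3 and 38.6 CPM (−1.65 ± 0.17, adjusted p = 2.87e-07). With the ZC3H11A hairpin Nars had 810, 506 and 570 counts (−0.90 ± 0.18, adjusted p = 0.00309) and Nars2 had 31.2, 22.9 and 21.1 CPM (−0.73 ± 0.16, adjusted p = 0.000972). Both genes were thus lowest with the Falcor hairpin, intermediate with the ZC3H11A hairpin and highest in control cells, and no group overlapped another in CPM. Tested directly, Falcor against ZC3H11A hairpin cells differed by −1.20 ± 0.19 for Nars (adjusted p = 0.000783) and −0.91 ± 0.18 for Nars2 (adjusted p = 0.000255).

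Dars, Eprs and Vars were also lower with the Falcor hairpin. Dars had 204, 166 and 290 counts against 553, 351 and 370 in control cells (−0.92 ± 0.10, adjusted p = 3.3e-07), and 141, 92 and 112 with the ZC3H11A hairpin (−1.64 ± 0.10, adjusted p = 5.04e-10). Eprs fell by 0.77 with the Falcor and by 0.73 with the ZC3H11A hairpin (adjusted p = 8.07e-08 and 1.85e-07). Vars, the valine enzyme, had 233, 218 and 223 CPM with the Falcor hairpin, against 327, 329 and 343 CPM in control cells (−0.59 ± 0.06, adjusted p = 1.58e-07). It was higher with the ZC3H11A hairpin, at 379, 358 and 394 CPM (0.20 ± 0.06, adjusted p = 0.00806). Iars2 moved in opposite directions too, at −0.31 with Falcor and 0.47 with ZC3H11A, and the call with Falcor was lost without Falcor replicate 2 (−0.26, adjusted p = 0.0552).

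Iars separated the 2 knockdowns most. It had 1028, 675 and 1480 counts with the Falcor hairpin (170, 140 and 165 CPM), 187, 138 and 138 counts with the ZC3H11A hairpin (25.7, 29.6 and 24.9 CPM), and 793, 518 and 516 counts in control cells (91.8, 92.2 and 84.4 CPM). The log2 fold change was 0.81 ± 0.08 with Falcor (adjusted p = 3.47e-07) and −1.73 ± 0.10 with ZC3H11A (adjusted p = 1.49e-10). Tested directly, the Falcor hairpin cells were higher by 2.54 ± 0.10 than the ZC3H11A hairpin cells (adjusted p = 5.52e-13). Gars had 1044, 759 and 750 counts with the ZC3H11A hairpin against 2761, 1812 and 2079 in control cells (−1.14 ± 0.07, adjusted p = 6.67e-10), and it was not called with Falcor (−0.06 ± 0.07, adjusted p = 0.508). Yars fell by 1.07 with ZC3H11A (adjusted p = 5.25e-07) and was not called with Falcor (0.12 ± 0.11, adjusted p = 0.375).

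Among the genes called higher with the Falcor hairpin, Cars had 169, 148 and 157 CPM against 73.9, 67.3 and 84.1 CPM in control cells (1.05 ± 0.08, adjusted p = 8.18e-09). Aars had 397, 387 and 385 CPM against 271, 286 and 286 CPM (0.45 ± 0.06, adjusted p = 5.4e-06). Farsa, Rars and Kars were higher by 0.74, 0.71 and 0.47. Ears2 had 52, 39 and 39 counts against 18, 13 and 25 (1.28 ± 0.37, adjusted p = 0.00695), and Sars2, for mitochondrial serine, had 35, 21 and 45 against 20, 12 and 13 (1.18 ± 0.34, adjusted p = 0.00762). These low counts leave wide errors. Hars and Hars2 lie head to head and overlap, so reads of the pair may be shared. Calls of Hars, Hars2 and Tars were lost when a library was left out. Of the genes with the C/EBP-ATF letters, 3 of 4 were higher with Falcor, where 25.5% of all genes were called higher. With ZC3H11A 1 was higher and 2 lower, where 24.2% and 24.3% were called. Counts over 4 genes are not read as a result about the letters.

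**Figure D4:**
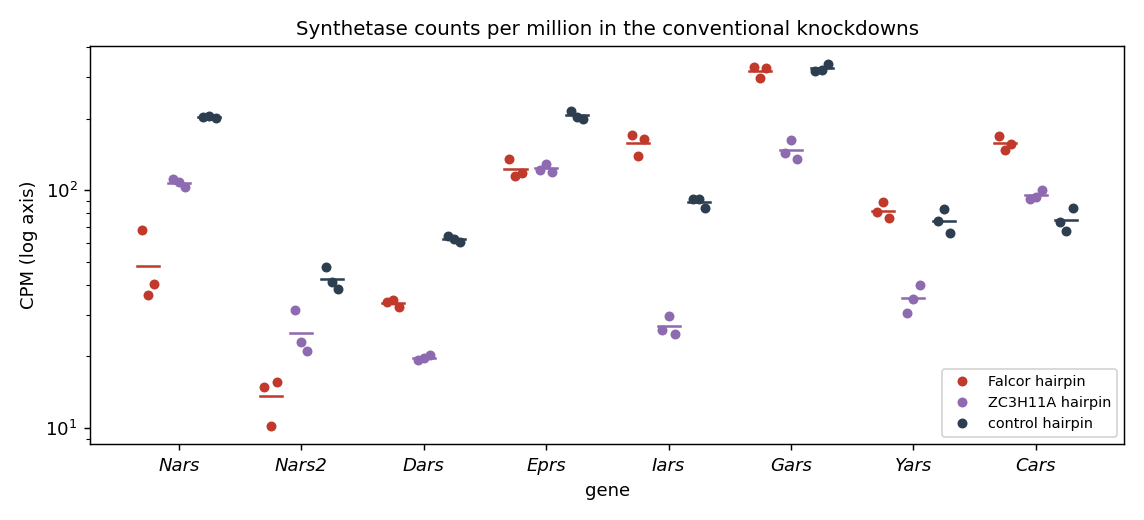
Normalised counts (CPM) of 8 synthetase genes in each library of the conventional experiment (log axis; points are libraries, lines are means of 3). Nars and Nars2 are lowest with the Falcor hairpin, and Iars, Gars and Yars are lowest with the ZC3H11A hairpin.

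With the ZC3H11A hairpin 11 genes were higher and 10 lower than in control cells, where 24.2% and 24.3% of all genes were called (48.5% in either direction). Its own target, Zc3h11a, had 4.54, 13.7 and 5.95 CPM, against 64.6, 66.8 and 58.7 CPM in control cells, and it was 39.6, 32.2 and 41.7 CPM with the Falcor hairpin. Of 18 class I enzymes, whose active site is a Rossmann fold, 10 were higher and 2 lower, and of 17 class II enzymes 1 was higher and 7 lower. With the Falcor hairpin the same classes gave 6 higher and 2 lower, and 7 higher and 3 lower. Mars1 was higher with ZC3H11A, at 141, 147 and 159 CPM against 91.8, 94.2 and 100 CPM (0.66 ± 0.07, adjusted p = 5.3e-07). The calls of Mars2, Rars2, Aars2 and Wars were lost when a library was left out, with Rars2 at 0.31 without control replicate 1 and Mars2 at 0.40 without control replicate 3. The 2 knockdowns share their control cells. Set directly against each other, the Falcor hairpin cells had 15 higher and 7 lower genes, where 28.4% and 28.6% of all genes were called (56.9% in either direction).

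In livers of Falcor knockout mice the synthetase genes stayed near their control values. On NCD 0 of 31 genes tested were higher and 1 was lower, where 4.20% and 1.85% of all 9426 genes tested were called (6.05% in either direction), and 5 had an unadjusted p below 0.05. The median log2 fold change was −0.05. The per-library mean over cytosolic genes was 3.75 to 3.95 in knockout and 3.79 to 3.95 in control livers, and over mitochondrial genes 2.53 to 2.71 and 2.52 to 2.68. Ears2 was the called gene, with 4, 4, 4 and 3 in knockout livers and 5 in each control liver (−0.50 ± 0.12, adjusted p = 0.0461). That call was lost when any of 7 of the 8 livers was left out, with fold changes of −0.41 to −0.57, and values this low carry rounding error. Without rescaling the median of all genes moved up by 0.18 and the counts were 1 higher and 0 lower. In bulk tissue, fewer cells of a type and less RNA per cell cannot be told apart.

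Other NCD differences did not pass the test. Vars had 8, 11, 9 and 7 in knockout livers and 10, 13, 11 and 10 in control livers (−0.48 ± 0.15, adjusted p = 0.0729). Hars2, the mitochondrial histidine enzyme, had 7, 6, 8 and 7 against 5, 4, 5 and 5 (0.31 ± 0.11, adjusted p = 0.101), and its groups did not overlap. Nars, strongly lower in the conventional Falcor knockdown, had 25, 28, 33 and 27 in knockout livers and 23, 33, 30 and 30 in control livers (−0.22 ± 0.10, adjusted p = 0.174). Hepatocyte marker sums were 45555 to 59191 in knockout and 40252 to 49908 in control livers, and macrophage marker sums 52.3 to 87.3 and 75.7 to 151. Their part was not tested.

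On HFD 0 of 24 genes tested were called by limma, 2 had an unadjusted p below 0.05, and 0.0338% and 0.0169% of all 5913 genes tested were called higher and lower (0.0507% in either direction). The fold change was positive in 20 genes and negative in 4, with a median of 0.15 against 0.02 for all genes. Sums of the 5 stellate and fibroblast markers did not overlap, at 15.97 to 25.08 in knockout and 26.12 to 43.47 in control livers, while hepatocyte sums did, and their part was not tested. Nars had a lowest, median and highest value of 5, 16 and 22 in 6 knockout livers, and 15, 9, 17, 9 and 11 in control livers (0.29 ± 0.12, adjusted p = 0.365). Those values are before scaling, and scaled Nars was 11.4 to 19.2 in knockout and 9.98 to 13.0 in control livers. The per-library cytosolic mean was 2.80 to 3.05 in knockout and 2.68 to 2.87 in control livers. The difference of the knockout effect between diets, HFD minus NCD, was called for 1 of 24 genes, where 2.87% and 5.01% of 5863 genes were called higher and lower (7.88% in either direction). That gene was Vars (0.68 ± 0.21, adjusted p = 0.0497), and the call was lost in most fits that left out 1 liver. For Nars the difference was 0.50 ± 0.16 (adjusted p = 0.0524).

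**Figure D5:**
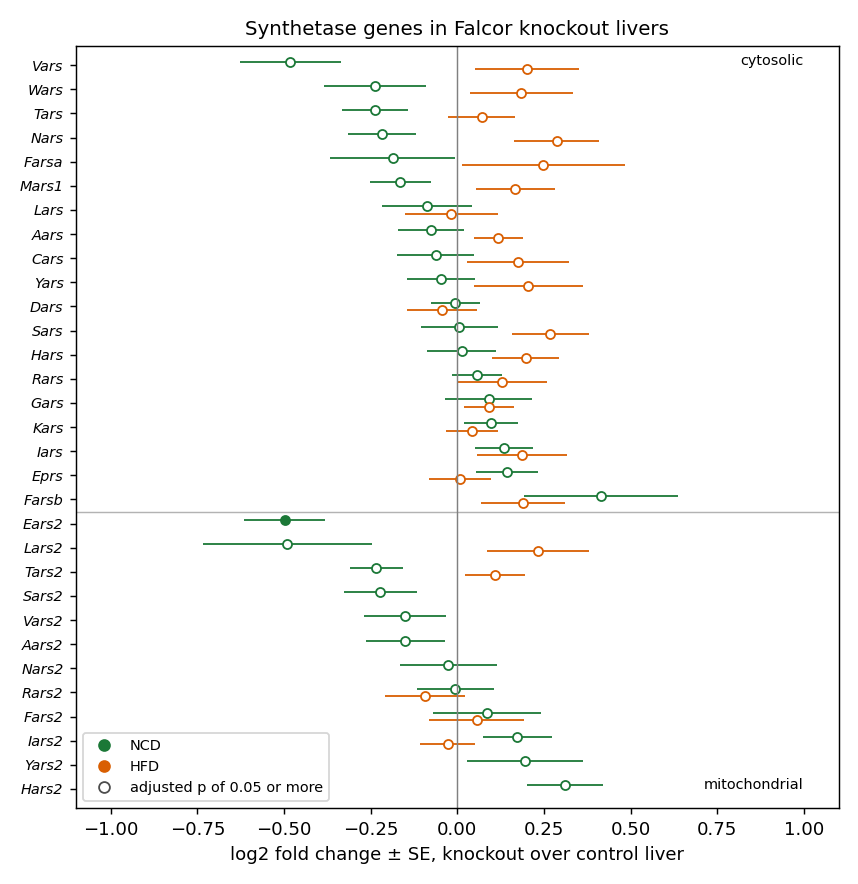
Log2 fold change ± SE of knockout over control livers for the synthetase genes tested on NCD (31 genes) and HFD (24 genes). The filled point, Ears2 on NCD at −0.50, had an adjusted p below 0.05.

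The genes that work with the synthetases were read in the same fits. Atf4 had 178, 184 and 186 in the Falcor hairpin line without doxycycline, against 314, 297 and 305 in the control hairpin line (−0.93, adjusted p = 5.09e-12). Under doxycycline it had 229, 226 and 224 against 191, 187 and 184 (0.28, adjusted p = 2.56e-05). In the restored state it had 295, 296 and 296 against 512, 515 and 502 (−0.94, adjusted p = 4.56e-12). Atf4 was lower in the Falcor hairpin line without doxycycline and in the restored state, and higher under doxycycline. Its part in the synthetase differences was not tested. Within the Falcor hairpin line scaled Atf4 was 273 to 278 restored and 234 to 241 under doxycycline, while most synthetase genes were lower restored. Of 33 ATF4 pathway genes 13 were higher and 12 lower there, against 34.1% and 38.1% of all genes. In the control hairpin line Atf4 was 520 to 537 restored and 193 to 201 under doxycycline, and more synthetase genes were higher than lower. Without doxycycline Atf4 was 298 to 344 in that line. From there to doxycycline its synthetase genes moved in both directions. With the conventional hairpins Atf4 was not called with Falcor (−0.13, adjusted p = 0.165) and lower with ZC3H11A (−0.69, adjusted p = 1.14e-06). In livers it was not called, at −0.02 on NCD and −0.06 on HFD.

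Of 33 tested genes of the ATF4 pathway without doxycycline, 26 were lower and 3 higher in the Falcor hairpin line, against 35.2% and 30.1% of all genes, with a median of −0.93. Among them were Atf5, a related transcription factor (−1.45), Mthfd2 of mitochondrial folate metabolism (−1.87) and Asns, which makes asparagine (−1.31, adjusted p = 2.4e-15). Under doxycycline 11 were higher and 11 lower, against 25.4% and 27.0% of all genes, and in the restored state 4 were higher and 25 lower, against 25.7% and 32.3%. The change of the hairpin difference from no doxycycline to doxycycline was upward in 25 and downward in 4, against 34.1% and 30.9%. With the conventional Falcor hairpin 14 were higher and 12 lower, against 25.5% and 26.0%, and with ZC3H11A 5 were higher and 17 lower, against 24.2% and 24.3%. Of 14 tested on NCD, Slc38a2, an amino acid transporter, was higher (0.96, adjusted p = 0.0125) and Atf5 lower (−0.89, adjusted p = 0.0337), and 0 of 11 were called on HFD.

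Genes that mature transfer RNA were also mostly lower in the Falcor hairpin line outside doxycycline. Without doxycycline 19 of 20 were lower and 0 higher, against 35.2% and 30.1% of all genes, with a median of −0.50, among them Nsun2, a transfer RNA methyltransferase (−0.86, adjusted p = 1.52e-12). In the restored state 16 were lower and 0 higher, against 32.3% and 25.7%, and under doxycycline 10 were higher and 1 lower, against 25.4% and 27.0%. The conventional hairpins gave 8 higher and 3 lower of 21 with Falcor, against 25.5% and 26.0% of all genes. With ZC3H11A the counts were 5 and 4, near the 24.2% and 24.3% of all genes. The scaffold Aimp2 was lower without doxycycline (−1.21, adjusted p = 2.38e-13) and in the restored state (−1.09, adjusted p = 8.51e-13), and Eef1e1 likewise (−1.03 and −0.57). Aimp1 was −0.22 without doxycycline (adjusted p = 0.0134) and was not called in the restored state. Under doxycycline Aimp2 was 0.13 (adjusted p = 0.0109) and the other 2 scaffolds were not called. With the conventional Falcor hairpin 1 scaffold of 3 was higher, Eef1e1 (0.82, adjusted p = 0.00214), against 25.5% of all genes. With ZC3H11A Eef1e1 was higher (0.84) and Aimp1 lower (−0.46), against 24.2% and 24.3% of all genes. Calls among 3 scaffolds are not read as a result about the list.

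The synthetase genes outside the row name rule showed no calls without doxycycline or in the restored state, where 65.3% and 57.9% of all genes were called. Pars2, for mitochondrial proline, was −0.24 (adjusted p = 0.051) without doxycycline, and Sepsecs, which makes selenocysteine on its transfer RNA, and Tarsl2, a threonine enzyme, were 0.21 and 0.13. Under doxycycline Pars2 was higher (0.27) and Sepsecs and Tarsl2 lower (−0.59 and −0.60). With the conventional Falcor hairpin Sepsecs was lower (−0.89, adjusted p = 0.00177).

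The remaining partner lists are short. Of 4 mitochondrial charging partners, 0 were called without doxycycline, where 65.3% of all genes were called. Gatc, a subunit of the glutamyl-tRNA(Gln) amidotransferase, was lower under doxycycline (−0.69, adjusted p = 1.47e-06). Qrsl1, another subunit, was higher in the restored state (0.27, adjusted p = 0.00951). With the conventional Falcor hairpin Gatb (1.06), Mtfmt (0.94) and Qrsl1 (0.74) were higher, and with ZC3H11A Gatc (1.18) and Mtfmt (0.94). Of all genes, 25.5% were called higher with Falcor and 24.2% with ZC3H11A. Calls among 4 partners are not read as a result about the list. Of 7 mitochondrial translation factors 1 was higher and 5 lower without doxycycline, against 30.1% and 35.2% of all genes. Under doxycycline 2 were higher and 1 lower, against 25.4% and 27.0%, and after restoration 1 was higher and 3 lower, against 25.7% and 32.3%. Of 8 tested with the conventional hairpins, 2 were higher and 0 lower with Falcor, against 25.5% and 26.0% of all genes. With ZC3H11A the counts were 1 and 1, against 24.2% and 24.3%.

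Of 5 cytosolic elongation factors 0 were higher and 3 lower without doxycycline, 3 higher and 1 lower under doxycycline, and 0 higher and 4 lower after restoration. The conventional Falcor hairpin gave 0 and 4, and ZC3H11A gave 4 and 1, the lower one being Eef1d (−2.58, adjusted p = 1.24e-11). Of 5 tested genes for editing and quality control of transfer RNA, 1 was higher and 1 lower without doxycycline, 2 higher and 0 lower under doxycycline, and 1 higher and 1 lower after restoration. Of 6 tested with the conventional hairpins, 1 was higher and 0 lower with Falcor, and 2 and 1 with ZC3H11A. Of all genes, 65.3% were called in either direction without doxycycline, 52.5% under it and 57.9% after restoration. The conventional Falcor and ZC3H11A hairpins gave 51.5% and 48.5%. With so few genes the counts are not read as results about the lists.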

How the data were processed

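Per the labels' protocols, RNA from AML12 cells and mouse livers was depleted of ribosomal RNA and made into strand-specific libraries. Tools named in the submitters' processing notes are kallisto and DESeq2, and the build is mm10, all without versions or roles. Annotation and settings were not found in these sources. The conventional table as deposited by the authors holds raw counts. The other 3 tables as deposited by the authors hold whole numbers with no stated unit, recorded as a score, whose low scatter and near-equal totals go against raw counts. For these a count test had been planned and was replaced by limma 3.58.1 (trend, robust) on log2(scaled value + 1), with TMM scaling over genes and a mean of at least 3. Counts were tested with the quasi-likelihood test of edgeR 4.0.16 (R 4.3.3) after its expression filter, and levels are given as CPM. Fold changes on the log2(value + 1) scale understate changes of low genes. P-values were adjusted by Benjamini-Hochberg over all genes of a comparison, and a gene was called below 0.05. All 6 inducible groups shared 1 fit, as did the 3 conventional groups, and each liver table had its own. The diet difference is the difference of the liver estimates. Counting intervals are not given for the 3 tables of unknown depth.

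The synthetase genes, the other lists and the promoter motif were chosen with earlier results of these data known. One gene of the rule is counted but not reported by name here. Any other synthetase gene could be named, and full statistics were meant for up to 6 called genes in each direction whose groups did not overlap. Liver control columns without a sample's own name were assigned to their group only. Alternatives were another scaling, no rescaling, another pseudocount, no filter on low values, DESeq2 1.42.0 for counts, a replicate block, each library left out and, chosen after seeing the data, removal of the trend of fold change with transcript length. Between the inducible lines the Spearman correlation of fold change with length was 0.39 without doxycycline, 0.29 restored and −0.14 under doxycycline. It was −0.35 for the change from no doxycycline to doxycycline, and −0.0009 and 0.04 for the conventional Falcor and ZC3H11A hairpins. With the trend removed from the 3 tables of values, 287 results stayed the same and 2 were weaker. The cause of the trend was not tested. On simulated data the tests recovered 96% of 2-fold changes for the inducible lines under doxycycline (9844 genes), 76% in the conventional Falcor comparison (11857), 72% in NCD livers (9463) and 75% in HFD livers (5949). For 1.5-fold changes the shares were 93%, 54%, 48% and 49% in the same order, and 5.97%, 7.14%, 5.51% and 3.12% of the calls were false. Figures were drawn with matplotlib 3.10.9.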

Additional observations from a re-analysis of the deposited data

Results flagged for a closer look

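In HFD control livers, 4 genes each had 1 of 5 libraries flagged as apart from the other 4, in scaled values. The flagged liver was not the same for all 4 genes. Farsa was 1.11 in one liver and 3.3 to 3.58 in the others. Hars was 3.41 against 4.29 to 4.44, and Lars was 2.27 against 3.3 to 3.58, both in the same liver. Rars2 was 2.61 against 3.3 to 3.58, although its lowest and median deposited values were both 3. Deposited values ran from 1 to 5 for Farsa, 3 to 6 for Hars and 2 to 5 for Lars. Whole numbers this low carry rounding error, which the check did not allow for. Of 110 gene and group sets checked 4 stood out in this way, and chance gives about 1 in 20.

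The difference between the Falcor and control hairpin lines changed with the state for many genes, by the test of the change itself. From no doxycycline to doxycycline it changed for 27 genes, by 1.24 for Ears2, 1.03 for Mars1, Tars2, Aars and Cars, 1.01 for Farsa, −0.63 for Lars2, −0.38 for Rars2 and −0.23 for Dars (log2). Doxycycline against the restored state also gave 27 genes, with 1.05 for Tars2, 0.97 for Vars2, 0.91 for Farsa, 0.87 for Ears2, 0.76 for Mars1, 0.75 for Cars, −0.71 for Lars2, −0.32 for Rars2 and −0.21 for Dars. The restored state against no doxycycline gave 12 genes, with 0.38 for Aars, 0.37 for Ears2, 0.31 for Tars, 0.29 for Yars, 0.28 for Cars and Mars1, −0.42 for Vars2 and −0.17 for Wars. The knockout effect differed between diets for 1 gene, Vars, by 0.68 (adjusted p = 0.0497, limma estimates).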

How the results depend on the processing

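Without rescaling between libraries 38 calls were lost, and 4 values reversed in the restored against doxycycline comparison of the Falcor hairpin line, to 0.0270 for Gars, 0.0448 for Mars1, 0.0033 for Vars and 0.0099 for Yars. The cause was not tested. The count of called genes in NCD livers was 1, and it was 0 with no filter on low values. It was also 0 with the replicate block, which could use only the 4 livers whose columns share a number, and since nothing links those livers this is not read as a weaker effect. The count for the diet difference was 1, and it was 0 with a pseudocount of 0.5, 0 with no filter, 0 without rescaling, 2 with relative log expression scaling and 2 with the length trend removed. Leaving out 1 library gave 0 to 1 genes in NCD livers, 0 in HFD livers and 0 to 3 for the diet difference. It gave 25 to 28 genes for the hairpin lines without doxycycline, 13 to 19 with it, 25 to 27 in the restored state, 8 to 14 for the change between restored and no doxycycline, 16 to 21 for the conventional Falcor and 18 to 21 for the ZC3H11A hairpin. DESeq2 called 17 and 18 genes in those 2. Same-numbered libraries correlated at −0.25 to 0.27 in the inducible and −0.10 to 0.24 in the conventional table, so the numbers were not taken as pairs, although 10 of 18 and 6 of 9 libraries correlated best with their own number. With the replicate block the counts were 26 without doxycycline, 16 with it, 26 restored, 19 for conventional Falcor, 20 for ZC3H11A and 0 in HFD livers. The unknown depth of 3 tables and values under 10 limit most mitochondrial genes.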
